A study of Mus musculus with 8 samples.

Results

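The genes described here encode the proximal signaling apparatus of interferon: the receptor chains Ifnar1, Ifnar2, Ifngr1 and Ifngr2, the Janus kinases Jak1, Jak2 and Tyk2, and the transcription factors Stat2 and Stat3. They were chosen by name, with earlier results of these data known, and all 9 were found among the 34478 gene symbols of the deposited table. RNA had been sequenced from 4 primary cell lines of murine pancreatic ductal adenocarcinoma (PDAC), called lines #1, #3, #5 and #10, each once with the solvent DMSO and once after 48 h with the MEK inhibitor trametinib (MEKi) at its IC50 for that line. All lines, control and treated alike, came from tumors of mice that carry the alleles Ptf1awt/Cre and Trp53loxP/loxP, in which a Cre recombinase expressed from the Ptf1a locus of the pancreas removes Trp53. The cells were cultured as cell lines, without the immune cells of a tumor. The labels give no duration for the DMSO control and no concentration of trametinib, and neither is stated here. Each line gave 1 library per treatment, so a change within 1 line has no replicate, and the 4 lines served as replicates of the treatment effect.

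Type I interferon binds a receptor made of IFNAR1 and IFNAR2, to which the kinases TYK2 and JAK1 are attached. Interferon gamma binds IFNGR1 and IFNGR2, which carry JAK1 and JAK2. The activated kinases phosphorylate STAT proteins. STAT2 and IRF9 are parts of the complex ISGF3, which binds interferon-stimulated response elements (ISRE), whereas STAT dimers bind gamma-activated sites (GAS). STAT3 is used above all by the receptors of the interleukin-6 family, which share the chain gp130 (Il6st), and is known in pancreatic cancer as a mediator of inflammatory signaling.

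The deposited values are normalized counts, summing to between 30680091 and 36385719 per library. From the spacing of low values, 1 read corresponded to 0.776 to 1.24 normalized counts, so each value of the 9 genes rested on an estimated 459 to 6808 reads. All 10 of 10 listed output genes of MAPK signaling were lower with trametinib, where 25.6% of all genes tested were. Among them was the ERK phosphatase Dusp6, which fell by 2.51 on the log2 scale (adjusted p = 0.00012 in limma). The list was chosen with earlier results of these data known, so it is only a limited check of the treatment labels. Of 6 markers of ductal epithelium 5 were expressed, with Krt8 highest, whereas Epcam was listed at 0 in 6 of the 8 libraries. The pan-leukocyte gene Ptprc stood at 4.05 to 17.2 normalized counts. Marker levels also moved with treatment. The summed level of 6 leukocyte markers ranged from 151 to 232 with DMSO and from 231 to 510 with trametinib, nearly all of it from Cd68 and Csf1r. The sum of 5 fibroblast markers ranged from 53.4 to 211 and from 35.7 to 136, with Lum listed at 0 in every library. That of 4 endothelial markers ranged from 30.9 to 54.6 and from 62.7 to 831, where Tek made up most of the sum in lines #1 and #3. The ductal sum was lower with trametinib, at 112400 to 220800 against 220800 to 347500. Its keratins were lower in each line, whereas Cdh1 was higher in lines #1, #3 and #10 and lower in line #5. The part of these markers in the results was not tested.

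With trametinib, 8 of the 9 genes were higher (limma, cell line as block, adjusted p under 0.05), and all 9 estimates were above 0. Among all 15888 genes with a mean of at least 10 normalized counts, 27.3% were higher and 25.6% lower by the same rule. The rise was largest for the 2 STAT genes, at 2.73-fold for Stat2 and 2.18-fold for Stat3, intermediate for Tyk2, Ifngr2, Ifnar1, Ifngr1 and Jak2, at log2 fold changes of 0.67 to 0.43, and smallest for Jak1, at 0.23. Ifnar2, the ninth gene, had a fold change of 1.27 and an adjusted p of 0.057. The median log2 fold change of the 9 genes was 0.55, against 0.07 for all genes tested. In single lines, the median of the 9 genes was 0.75 in line #1, 0.56 in line #3, 0.52 in line #5 and 0.69 in line #10. Of the 36 single changes, 9 genes in 4 lines, 35 were upward. Thus 8 genes were higher in all 4 lines, which held for 34.7% of all genes tested, and in 5 of them, Ifnar1, Ifngr2, Tyk2, Stat2 and Stat3, every trametinib library lay above every DMSO library, which held for 15.1%. Here and below, a fold change is calculated from log2(normalized count + 1), and its 95% interval and standard error (SE) come from limma.

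**Figure D1:**
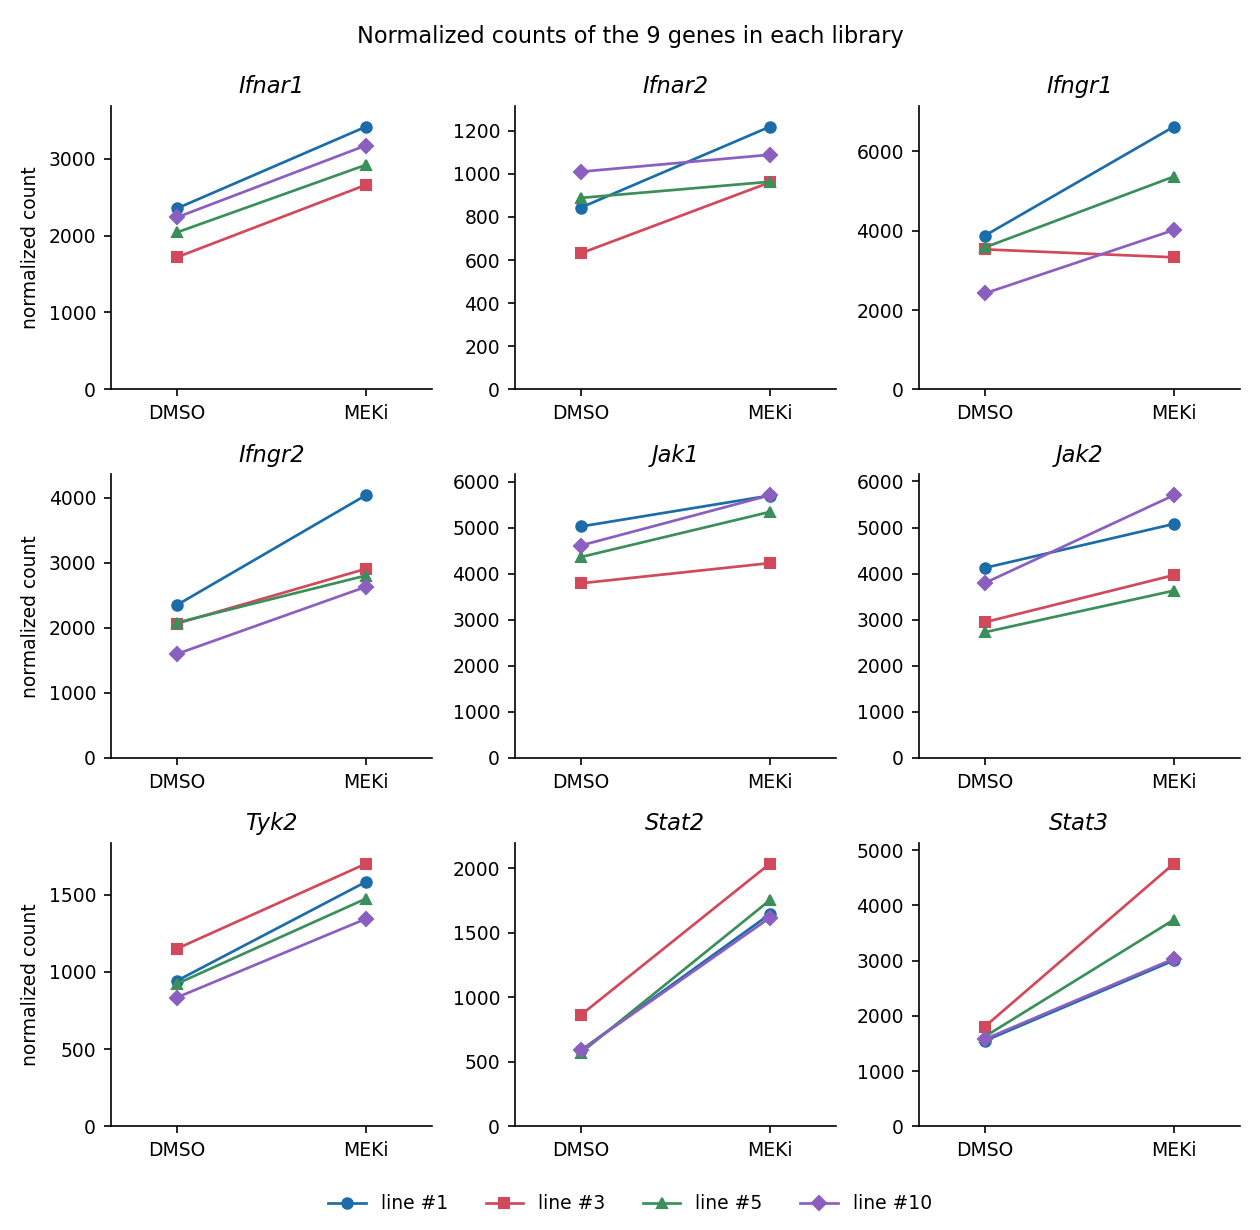
Normalized count (vertical axes, each starting at 0) of each gene with DMSO and with trametinib (MEKi). Each symbol is 1 library and each line joins the libraries of a cell line. Of the 36 joining lines 35 slope upward, and the exception is Ifngr1 in line #3.

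Of the chains of the type I interferon receptor, Ifnar1 was higher with trametinib and Ifnar2 did not pass. Ifnar1, the chain that carries TYK2, lies on chromosome 16 from 91485238 to 91507441 of GRCm38 on the plus strand. Its normalized counts with DMSO were 2351 in line #1, 1717 in line #3, 2040 in line #5 and 2235 in line #10, and with trametinib 3412, 2656, 2916 and 3169 in the same order. Line #3 was lowest with either treatment, and the groups did not overlap. The log2 fold change was 0.55 (SE 0.08, adjusted p = 0.0017 in limma), a 1.46-fold rise (95% interval 1.28 to 1.66), and the 4 lines lay close together, between 0.50 and 0.63. Ifnar2, the chain that binds interferon most tightly and carries JAK1, lies on the same chromosome and strand from 91372783 to 91405589. It stood at 843, 631, 888 and 1010 normalized counts with DMSO and at 1218, 960, 963 and 1089 with trametinib in lines #1, #3, #5 and #10. Lines #1 and #3 gained 1.44-fold and 1.52-fold, while lines #5 and #10 gained 0.12 and 0.11 on the log2 scale, and the groups overlapped. The log2 fold change was 0.34 (SE 0.13, adjusted p = 0.057 in limma), with a 95% interval of the fold from 1.03 to 1.56. Ifnar2 passed the threshold only with the libraries rescaled to equal totals, at an adjusted p of 0.017, a scaling that raised the median log2 fold change of all genes by 0.13, to 0.20. Quantile normalization lowered that median to -0.03. Exons of Ifnar2 overlap those of Gm21970 on the same strand, a gene listed at no more than 6.63 normalized counts in any library.

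The promoters of both chains hold 1 match each to the GAS letters, TTCNNNGAA, which read the same on either strand. They are shown because the 2 genes share the motif and a neighborhood while 1 of them passed the test. The sequences are those of RefSeq for GRCm38.p6, on the plus strand, from 250 bases before to 50 bases after the RefSeq start, at chr16:91484965-91485264 for Ifnar1 and chr16:91372533-91372832 for Ifnar2, and capitals mark the match.
Ifnar1: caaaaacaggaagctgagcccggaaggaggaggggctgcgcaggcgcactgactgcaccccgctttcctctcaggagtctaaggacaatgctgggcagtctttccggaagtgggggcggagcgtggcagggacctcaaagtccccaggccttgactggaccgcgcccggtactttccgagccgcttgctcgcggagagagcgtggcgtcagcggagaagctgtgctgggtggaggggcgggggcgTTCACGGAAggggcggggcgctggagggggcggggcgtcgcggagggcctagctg
Ifnar2: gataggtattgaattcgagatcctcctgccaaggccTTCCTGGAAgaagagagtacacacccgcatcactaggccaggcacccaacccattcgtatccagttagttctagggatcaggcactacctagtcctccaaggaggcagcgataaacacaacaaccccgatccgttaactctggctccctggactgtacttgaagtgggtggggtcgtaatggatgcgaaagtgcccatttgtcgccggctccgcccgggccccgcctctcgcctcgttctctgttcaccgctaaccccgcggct
The match of Ifnar1 begins at position -5 and that of Ifnar2 at position -214 relative to the start. Of all 32851 promoter windows of this length, 8.3% hold a match, so 2 of the 9 windows of the genes described here are no more than a description.

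Both chains of the interferon gamma receptor were higher with trametinib, Ifngr1 in 3 lines and Ifngr2 in 4. Ifngr1, the ligand-binding chain, lies on chromosome 10 from 19591949 to 19610229 on the plus strand. Its normalized counts with DMSO were 3874, 3530, 3577 and 2420 in lines #1, #3, #5 and #10, and with trametinib 6617, 3330, 5362 and 4016. It was higher in lines #1, #5 and #10, by 0.77, 0.58 and 0.73 on the log2 scale, and slightly lower in line #3, at -0.08. Over the 4 lines the log2 fold change was 0.50 (SE 0.15, adjusted p = 0.030 in limma). Without line #3 it was 0.70 with an adjusted p of 0.00061, whereas the adjusted p was 0.12, 0.099 and 0.11 without lines #1, #5 and #10, 0.15 without the block, 0.17 without a filter on low counts and 0.073 with eBayes without trend. With 1 library per line and treatment, the difference of line #3 from the others could not be tested. Ifngr2, the signaling chain that carries JAK2, lies on chromosome 16 from 91547072 to 91565623 on the plus strand. Its normalized counts were 2348, 2064, 2078 and 1597 with DMSO and 4035, 2904, 2801 and 2628 with trametinib in lines #1, #3, #5 and #10. The groups did not overlap, and the log2 fold change was 0.61 (SE 0.09, adjusted p = 0.0023 in limma), a 1.52-fold rise.

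Ifnar2, Ifnar1 and Ifngr2 lie in this order on the plus strand of chromosome 16, within 193 kb. Between Ifnar2 and Ifnar1 lies Il10rb, the chain shared by the receptors of interleukin-10 and interferon lambda, which begins 0.57 kb after the end of Ifnar2. Il10rb went from 867, 805, 865 and 882 normalized counts with DMSO to 1568, 1625, 1012 and 1215 with trametinib in lines #1, #3, #5 and #10, which limma estimated at 0.64 on the log2 scale (SE 0.15, adjusted p = 0.011). Like its neighbor Ifnar2, it gained least in lines #5 and #10. Its partner in the receptor of interferon lambda, Ifnlr1, was also higher, by 0.63 on the log2 scale (SE 0.10, adjusted p = 0.0028 in limma).

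**Figure D2:**
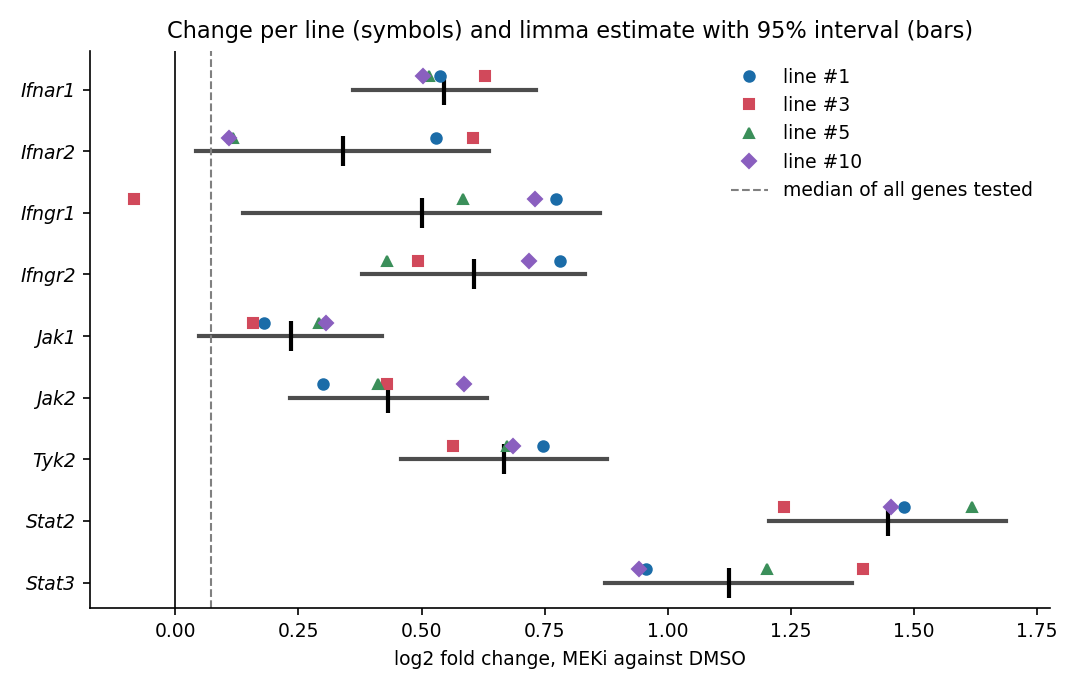
Log2 fold change of trametinib against DMSO (horizontal axis) for each gene. Symbols are single lines, the vertical tick and bar are the limma estimate with its 95% interval, and the dashed line is the median of all genes tested, 0.07. Stat2 and Stat3 lie farthest to the right, Jak1 lies closest to 0, and line #3 stands apart for Ifngr1.

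All 3 kinases were higher, to different degrees. Tyk2, on chromosome 9 from 21104068 to 21131243 on the minus strand, had 942, 1150, 923 and 834 normalized counts with DMSO and 1582, 1699, 1473 and 1343 with trametinib in lines #1, #3, #5 and #10. The groups did not overlap, and every line rose by 1.48-fold to 1.68-fold. Its log2 fold change was 0.67 (SE 0.09, adjusted p = 0.0013 in limma). Jak2, on chromosome 19 from 29251828 to 29313080 on the plus strand, went from 4124, 2945, 2728 and 3795 to 5077, 3966, 3629 and 5699. It was higher in each line and gained most in line #10, at 0.59 on the log2 scale, but its groups overlapped because the lines also differed from each other with DMSO. Its log2 fold change was 0.43 (SE 0.08, adjusted p = 0.0053 in limma), and the adjusted p was 0.13 without the block. Jak1, the kinase that both interferon receptors share, lies on chromosome 4 from 101152367 to 101265282 on the minus strand. It had 5025, 3792, 4361 and 4612 normalized counts with DMSO and 5695, 4229, 5341 and 5702 with trametinib. Each line gained, by 1.12-fold to 1.24-fold, less than the lines differed among themselves, and the groups overlapped. The log2 fold change of 0.23 (SE 0.08) had an adjusted p of 0.041 in limma. It did not pass without the block, at 0.26, nor with each library centred on its median, at 0.11, nor with eBayes without trend, at 0.093, nor without line #1, #5 or #10, at 0.099, 0.15 and 0.17. Exons of Jak1 and Tyk2 overlap Raver2 and 1700084C06Rik on the opposite strand, and both of these were listed at no more than 6.20 normalized counts in any library.

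The transcription factors changed most. Stat2, the factor of ISGF3 that is specific to type I and lambda interferon, lies on chromosome 10 from 128270559 to 128292849 on the plus strand. Lines #1, #3, #5 and #10 had 588, 862, 569 and 589 normalized counts of it without the inhibitor and 1642, 2033, 1750 and 1614 with it. Line #3 was highest with either treatment, and the lowest trametinib library, at 1614, lay above the highest DMSO library, at 862. The log2 fold change was 1.45 (SE 0.10, adjusted p = 0.00023 in limma), a 2.73-fold rise (95% interval 2.31 to 3.22), and 91.3% of all genes tested had a smaller value. Stat3, on chromosome 11 from 100885098 to 100939540 on the minus strand, had 1548, 1804, 1625 and 1578 normalized counts with DMSO, a spread of 7.01% of the mean (SD, n = 4), the smallest of the 9 genes. With trametinib it had 3002, 4751, 3738 and 3032, a spread of 22.6%. The groups did not overlap, and line #3 gained most, at 2.63-fold, against 1.92-fold in line #10. The log2 fold change was 1.12 (SE 0.11, adjusted p = 0.00049 in limma), a 2.18-fold rise (95% interval 1.83 to 2.59). The 3' end of Stat5a overlaps exons of Stat3 on the opposite strand. A stranded kit was used, but how strand entered the counting is not given in the sources used here.

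The promoters of the 2 genes that rose most are shown to compare their interferon motifs. They are RefSeq sequences for GRCm38.p6, written in the direction of the gene over the same window, at chr10:128270248-128270547 for Stat2 (plus strand) and chr11:100939491-100939790 for Stat3 (minus strand), and capitals mark a match.
Stat2: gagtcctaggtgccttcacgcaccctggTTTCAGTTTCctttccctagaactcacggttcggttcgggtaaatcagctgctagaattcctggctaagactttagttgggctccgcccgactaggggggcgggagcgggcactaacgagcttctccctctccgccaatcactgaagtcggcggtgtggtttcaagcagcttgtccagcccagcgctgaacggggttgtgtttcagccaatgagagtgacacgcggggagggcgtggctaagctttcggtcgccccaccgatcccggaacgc
Stat3: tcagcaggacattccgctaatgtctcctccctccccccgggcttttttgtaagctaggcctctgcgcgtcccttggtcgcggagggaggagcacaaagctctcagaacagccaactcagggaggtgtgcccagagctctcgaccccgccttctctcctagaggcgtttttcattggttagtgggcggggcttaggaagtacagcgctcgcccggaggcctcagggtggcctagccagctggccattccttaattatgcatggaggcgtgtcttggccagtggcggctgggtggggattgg
The window of Stat2 holds 1 match to the ISRE letters, 2 copies of GAAA separated by 2 bases, on either strand, which begins at position -222 and reads TTTCAGTTTC. Such a match occurs in 3.44% of all 32851 windows and in no other of the 9 genes. The window of Stat3 matches neither the ISRE nor the GAS letters. The letters TGANTCA, to which the AP-1 factors downstream of ERK bind, occur in 7.81% of all windows and in none of the 9. The absence of a match says only that these letters are not in this window.

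Partners of a receptor or pathway were compared within each library, which does not depend on the scaling between libraries. Over 4 lines, the exact sign-flip permutation test cannot go below p = 0.13, two-sided, so no pair could pass. The log2 ratio of Jak1 to Tyk2, the kinases of the type I receptor, fell in each line, from 2.21 to 1.78 on average, a change of -0.43 ± 0.09 (SD, n = 4 lines; exact sign-flip permutation test p = 0.13, 0.21 after adjustment over the 5 pairs). The ratio of Jak1 to Jak2 also fell in each line, by 0.20 on the log2 scale. The ratio of Ifnar1 to Ifnar2 changed by 0.01 in line #1 and 0.03 in line #3, but by 0.40 in lines #5 and #10. The ratio of Ifngr1 to Ifngr2 changed by -0.58 in line #3 and by -0.01 to 0.15 in the other lines. Stat3 gained less than Stat2 in lines #1, #5 and #10, with changes of the log2 ratio of -0.52, -0.42 and -0.51, and more in line #3, at 0.16.

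The order of the lines differed between the genes. With DMSO, line #3 had the lowest normalized counts of Ifnar1, Ifnar2 and Jak1 and the highest of Tyk2, Stat2 and Stat3. Line #10 had the lowest counts of Ifngr1, Ifngr2 and Tyk2 and the highest of Ifnar2. The same order of line #3 held with trametinib for each of these 6 genes. The line with the highest and that with the lowest mean log2 level differed by 0.40 for Tyk2 up to 0.70 for Ifngr1. In limma's moderated F test between the lines, 1 of the 9 genes, Jak2, had an adjusted p under 0.05 (adjusted p = 0.028), where 27.6% of all genes tested did. Jak2 was highest in line #10 and lowest in line #5. It lost this call without line #1, #5 or #10 (adjusted p of 0.066, 0.099 and 0.078), and without line #3 Ifngr1 (0.0093) and Ifngr2 (0.029) passed in addition. Treatment accounted for 93.1% of the variation of Stat2 over the 8 libraries and for 88.7% of that of Stat3, on the log2 scale, but for 34.0% of that of Jak1, for which the line accounted for 63.3%. For Ifnar2 and Ifngr1, 18.8% and 17.5% were left to neither, against at most 3.85% for the other 7 genes.

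**Figure D3:**
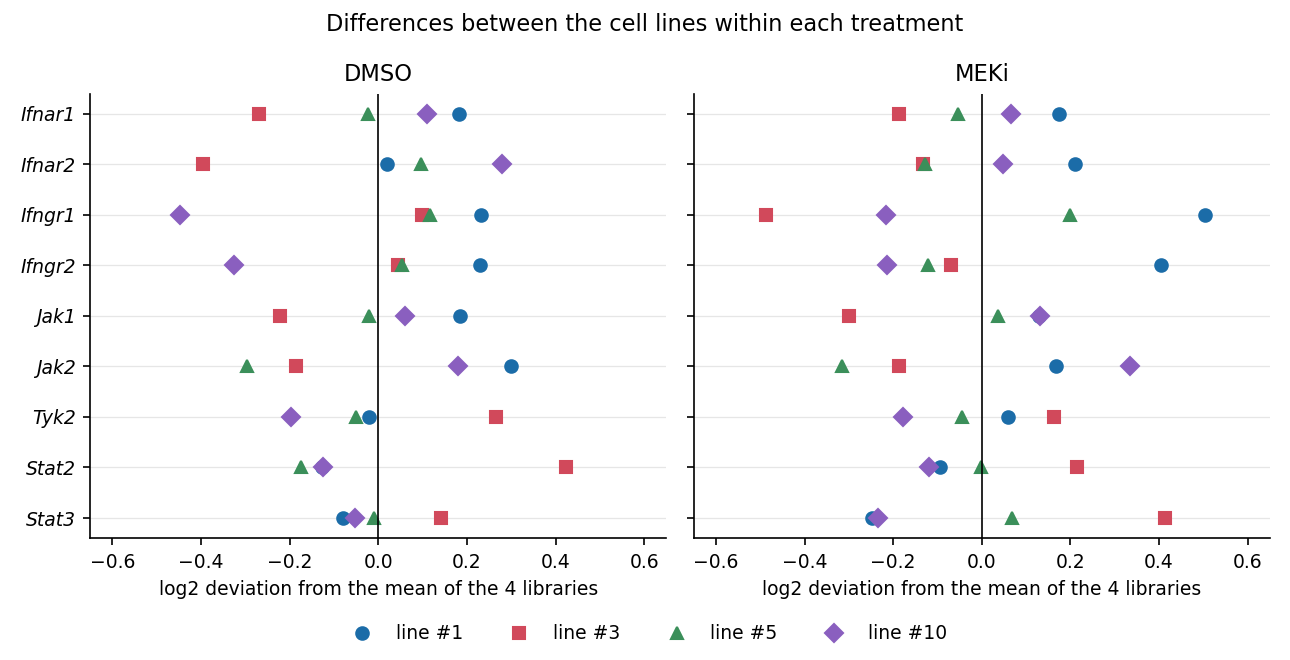
Log2 deviation of each library from the mean of the 4 libraries of its treatment (horizontal axes), for DMSO (left) and trametinib (right). Each symbol is 1 cell line. Line #3 lies on the left for Ifnar1, Ifnar2 and Jak1 and on the right for Tyk2, Stat2 and Stat3 in both panels.

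Levels can be compared between genes only per length, and were divided by the annotated exon length of each gene. With DMSO, Ifngr1 was highest, at 1177 ± 224 normalized counts per kb (SD, n = 4), followed by Jak2 at 676 ± 133, Jak1 at 615 ± 71.4, Ifngr2 at 537 ± 82.8, Ifnar1 at 351 ± 46.7, Ifnar2 at 253 ± 47.4, Stat3 at 172 ± 12.1, Tyk2 at 140 ± 19.5 and Stat2 at 110 ± 23.7. The libraries of Jak2, Jak1 and Ifngr2 overlapped, as did those of Ifnar1 and Ifnar2, of Stat3 and Tyk2, and of Tyk2 and Stat2. With the length of the longest transcript in place of all exons, Jak1 stood above Jak2, the other genes kept their order of means, but the separations between groups of genes were lost in part. The libraries of Ifngr2 and Ifnar1 then overlapped, at means of 545 and 534, as did those of Jak2 and Ifnar1 and those of Ifnar2 with Stat3 and with Tyk2. With trametinib, Stat3 reached 381 ± 86.1 per kb, above Ifnar2 at 318 ± 36.8 with overlapping libraries, and Stat2 reached 297 ± 32.3, above Tyk2 at 222 ± 22.2 without overlap. The chains of the gamma receptor were thus above those of the type I receptor per kb of all exons in both groups, at 1697 ± 513 and 821 ± 170 against 512 ± 54.8 and 318 ± 36.8 with trametinib.

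**Figure D4:**
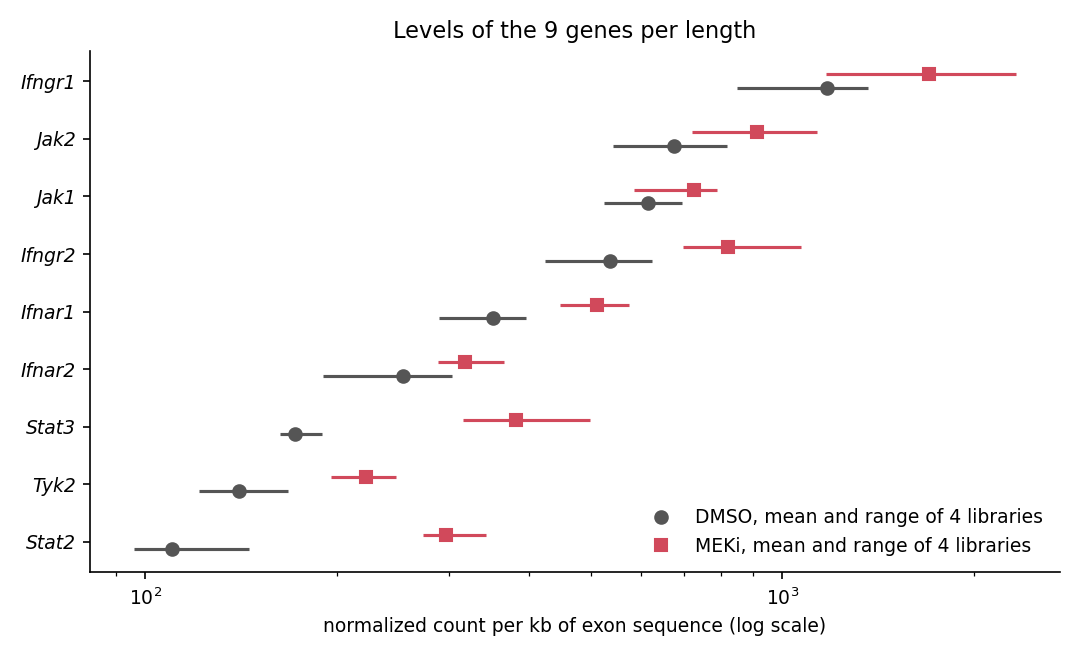
Normalized count per kb of annotated exon sequence (horizontal axis, log scale) for each gene. Symbols are means and bars the range of the 4 libraries of a group. Stat2 is lowest with DMSO at 110 per kb and lies above Tyk2 with trametinib, at 297 against 222 per kb.

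Of 5 other JAKs and STATs described here, 4 passed the filter on low counts, and these 4 were higher, where 27.3% of all genes tested were. Stat5a, a factor of growth hormone and cytokine signaling, had 194 to 464 normalized counts with DMSO and 814 to 896 with trametinib, a rise by 1.53 on the log2 scale (SE 0.20, adjusted p = 0.0012 in limma). Stat5b rose by 1.07 (adjusted p = 0.00061), Jak3 by 0.63 (adjusted p = 0.0028) and Stat6, the factor of interleukin-4, by 0.45 (adjusted p = 0.011), all on the log2 scale in limma. Stat6 did not pass without line #1 (0.054), without line #10 (0.058), with no filter (0.065) or without the block (0.092), and Jak3 did not pass without the block (0.14). Stat4, a factor of lymphocytes, was listed at no more than 1.82 normalized counts.

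Of 16 listed ligand genes, 10 were in the table, and the interferons Ifnb1 and Ifng were listed at 0 in every library. Ifna2 was at no more than 1.24 normalized counts and Il6 at no more than 5.46, close to the floor of 3 reads of 2.33 to 3.72. Line #3 had 44.9 and 17.1 normalized counts of Ifne without and with the inhibitor, and the other lines no more than 1.62. Of 4 ligands tested, all of the interleukin-6 family, Clcf1 was higher, by 0.65 on the log2 scale (adjusted p = 0.0053 in limma, 0.061 with no filter). Lif was lower, at -0.72 (adjusted p = 0.011 in limma, 0.35 without the block), and Il11 and Ctf1 did not pass. Among all genes tested, 27.3% were higher and 25.6% lower.

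Of 17 other receptors that signal through JAKs, 6 were higher and 2 lower, where 27.3% and 25.6% of all genes tested were, but only 2 were called higher with no filter on low counts and 4 without the block. The largest rises were those of Osmr, the receptor of oncostatin M, from 7.30 to 48.6 normalized counts with DMSO to 66.4 to 382 with trametinib (log2 fold change 2.65, adjusted p = 0.0055 in limma), of Il6st (1.40, adjusted p = 0.00015) and of Il13ra1 (1.24, adjusted p = 0.016). Il4ra and Il22ra1 were lower, at -1.73 (adjusted p = 9.7e-05) and -1.20 (adjusted p = 0.0017) in limma. Among 5 partners of the STATs, Irf9 (0.76, adjusted p = 0.0096) and Nmi (0.75, adjusted p = 0.0076) were higher and the importin Kpna1 was lower (-0.34, adjusted p = 0.020 in limma). The shares over all genes tested were again 27.3% and 25.6%, and the 5 partners had a median log2 fold change of 0.10. Nmi did not pass with quantile normalization, at 0.41 on the log2 scale (adjusted p = 0.072), nor without the block (0.062), and Irf9 did not pass with no filter (0.083). Kpna1 was lost in more settings, among them no block (adjusted p = 0.31 in limma) and libraries rescaled to equal totals (0.091). The coactivators Crebbp and Ep300 had log2 fold changes of 0.10 and -0.04 and did not pass.

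Of 18 inhibitors of JAK-STAT signaling, 3 were higher and 7 lower, where 27.3% and 25.6% of all genes tested were. The 18 had a median log2 fold change of -0.27. Lower were Socs1 (-2.37, adjusted p = 0.0091), which blocks JAKs directly, Sh2b3 (-0.98, adjusted p = 0.00069) and Socs6 (-0.87, adjusted p = 0.00085), together with Socs3, Socs5, Pias3 and the phosphatase gene Ptpn2. Pias3 passed in only 4 of 14 alternative settings, and not without the block (adjusted p = 0.41 in limma). Higher were Cish, an inhibitor induced by STAT5 (2.09, adjusted p = 0.00055), Usp18, which acts at IFNAR2 (1.91, adjusted p = 0.015), and Pias1 (0.46, adjusted p = 0.022 in limma). Usp18 was at 3.96 to 8.21 normalized counts with DMSO and passed the filter on low counts only through the trametinib libraries. The size of its change is therefore uncertain.

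Among 12 listed targets of ISGF3, 10 were tested and 7 were higher, where 27.3% of all genes tested were. Of the 7, Ifit1, Isg15 and Usp18 had means of 3.49, 5.03 and 5.24 normalized counts with DMSO. They passed the filter on low counts only through the trametinib libraries, so their calls cannot be set against that share. The 10 had a median log2 fold change of 1.63, led by Ifit3 (2.64, adjusted p = 0.0011), Oasl2 (2.29, adjusted p = 0.0078) and Ifit1 (2.29, adjusted p = 0.0041 in limma). Most were low, and only Ifit2, Ifit3, Oasl2 and Bst2 reached a mean of 50 normalized counts. With a filter there, the first 3 of these were higher and the rest of the list was not tested. Mx1 and Bst2 had log2 fold changes of -0.17 and 0.14 and did not pass. Of 6 tested targets of GAS elements, 4 were higher and 1, Socs1, was lower, where 27.3% and 25.6% of all genes tested were. The 4 were led by Cxcl10 (1.77, adjusted p = 0.019), Icam1 (1.27, adjusted p = 0.00041) and Cd274 (1.06, adjusted p = 0.0014 in limma). Cxcl10 was lower in line #3, from 56.3 to 50.2, and higher in the other 3 lines. Of 10 listed targets of STAT3, 4 were higher and 2 lower, where 27.3% and 25.6% of all genes tested were. Hp (2.45, adjusted p = 0.0024), Lcn2 (2.35, adjusted p = 0.031) and Cebpd (1.14, adjusted p = 0.027 in limma) were higher, the first 2 from fewer than 10 normalized counts with DMSO, while Socs3 (-0.69, adjusted p = 0.0070) and Il4ra were lower. Hp and Lcn2, with DMSO means of 2.76 and 4.19, passed the filter on low counts only through the trametinib libraries. Their calls cannot be set against the share over all genes. Without the block, 0 of these 10 genes were called higher, and without line #1, #5 or #10 the number was 1, 1 and 2. For the GAS targets it was 2 without each of these lines.

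**Figure D5:**
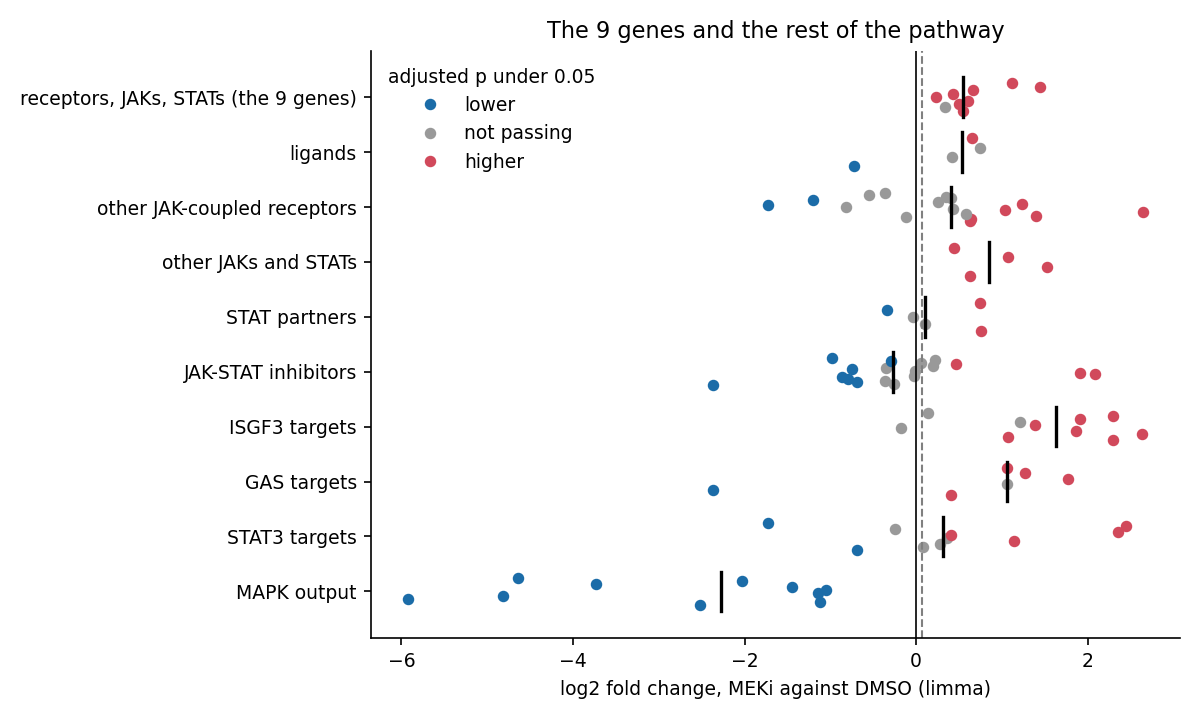
Log2 fold change of trametinib against DMSO in limma (horizontal axis) for the 9 genes and the listed genes around them. Each point is 1 gene, colored by its call (threshold of the adjusted p 0.05), the black tick is the median of the list and the dashed line that of all genes tested. The inhibitors have a median of -0.27, the targets of ISGF3 of 1.63.

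Over the 8 libraries, the 9 genes correlated with each other at a Pearson r of 0.30 to 0.97 on the log2 scale, with a median of 0.64 over 36 pairs, and libraries of a treatment share its effect. The closest pairs were Tyk2 with Stat2 (0.97) and Stat2 with Stat3 (0.97). After removal of the treatment means the median was -0.01, with Ifnar1 and Jak1 at 0.92 and Jak1 and Stat3 at -0.89. The genes most like each of them among all genes tested were Rsu1 (0.995) and Rrnad1 (0.99) for Ifnar1, Snapin and Upp2 for Ifnar2, Fbxo46 and Bpgm for Ifngr1, Rabac1 and B4galt1 for Ifngr2, Mindy3 and Lmo4 for Jak1, Zfpl1 and Itga10 for Jak2, Il18 and Rnf122 for Tyk2, Col4a5 for Stat2 and AC126804.2 and Zkscan1 for Stat3. With 8 libraries such values are common, since 52 genes for Ifngr1 and up to 761 for Stat2 and for Stat3 had an r over 0.9.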

How the data were processed

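RNA of 4 murine PDAC cell lines, each with DMSO and with trametinib, had been sequenced from stranded mRNA libraries. What the authors deposited is a signal per gene: normalized counts, made comparable between libraries but not divided by length. Their processing notes name CASAVA 2.17, Salmon 0.12, DESeq2 1.18 and the build mm10, without roles, and the annotation is not given in the sources used here. Between 52.8% and 68.5% of the values under 20 reads lay within 0.05 of a whole read, so no test of read counts was run.

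Values were transformed as log2(normalized count + 1) and fitted with limma 3.58.1 in R 4.3.3 (lmFit, eBayes with trend), with the line as a block, over 15888 genes with a mean of at least 10, with Benjamini-Hochberg adjustment and a threshold of 0.05. Both libraries of a number come from the same line, so they are paired, and their deviations from the treatment means correlated at 0.63 to 0.72 in each of the 4 lines. The fit was tested on simulated data. The F test between lines came from the same fit. Gene positions and exon lengths are those of GENCODE M21 on GRCm38, and all 9 genes matched a RefSeq promoter. Other steps used pandas 2.3.3, scipy 1.17.1 and numpy 2.4.6 under Python 3.11.15, and matplotlib 3.10.9 for plots.

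The 9 genes and the lists were chosen with earlier results of these data known. Of each list, up to 3 genes with the largest rise and 3 with the largest fall past the threshold were to be named, plus every JAK, STAT and STAT partner and the 2 genes most correlated with each of the 9. Genes named beyond this were chosen after their values were seen. Alternatives were equal library totals, centring on the median, quantile normalization, a pseudocount of 0.1 or 5, no filter, a filter at 50, no block, eBayes without trend or with robust estimation, and leaving out each line. An allele that all lines share, a gene correlated with Stat2 and a gene of the list of other JAKs and STATs are not reported here, so the counts of that list do not cover all of it.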

Additional observations from a re-analysis of the deposited data

Results flagged for a closer look

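Among 54 groups of 4 values, from the 9 genes and 9 others of the JAK-STAT core, 3 held 1 value far outside the range of the rest, where chance gives about 2.7. For Stat2 this was line #3 with DMSO, whose 862 normalized counts compare with 569 to 589 elsewhere. For Jak3 it was the log2 fold change of line #10, 0.41 against 0.68 to 0.72. For Stat5b it was line #10 with trametinib, whose 2372 normalized counts compare with 1745 to 1801.

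In 3 genes, lines changed in opposite directions, a difference that was not tested because each line has 1 library per treatment. The log2 fold change of Ifngr1 was -0.0841 for line #3 against 0.58 to 0.77. Crebbp had -0.0682 for line #10 against 0.0035 to 0.29. Ep300 had 0.16 for line #3 and 0.11 for line #10, and values below 0 for lines #1 and #5, down to -0.28.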

How the results depend on the processing

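Over 14 alternatives, none of the 9 genes changed direction, and 112 of 126 values stayed on their side of the threshold. Ifnar1, Ifngr2, Tyk2, Stat2 and Stat3 passed in each of the 14. The number of genes called higher was 8, 5 without the replicate block, as Ifngr1, Jak1 and Jak2 were lost, 6 with eBayes without trend, as Ifngr1 and Jak1 were lost, 7 with no filter, 7 centred on the median, and 6 to 8 with a line left out. The number called lower was 0 in each alternative. For the test between lines, Jak2 was the 1 gene called, 0 were called with no filter or with eBayes without trend, and 0 to 3 with a line left out. Of all listed genes outside the 9, 30 were called higher, but 14 with no filter and 14 with no replicate block. The 21 called lower include the 10 output genes of MAPK signaling. Among all genes tested, 27.3% were higher and 25.6% lower. Without the block, 4 in place of 7 targets of ISGF3, 1 in place of 4 GAS targets, 0 in place of 4 STAT3 targets and 2 in place of 4 other JAKs and STATs were called higher. With no filter, 2 in place of 6 other receptors, 3 ISGF3 targets, 2 GAS targets and 1 STAT3 target were called higher, and 4 in place of 7 inhibitors lower. Of the STAT partners, 1 in place of 2 was called higher with quantile normalization, no filter or no block. With libraries rescaled to equal totals, 5 in place of 3 inhibitors were called higher. The 1 higher ligand, Clcf1, lost its call with no filter. The 1 lower ligand, Lif, lost its call with no filter, without the block and without line #1, and the 1 lower STAT partner, Kpna1, in 7 of the 14 alternatives. The change with trametinib of the log2 ratio of Ifngr1 to Ifngr2, -0.10 over the 4 lines, ranged from -0.19 to 0.052 with a line left out and was above 0 only without line #3. Among named genes outside the 9, Lcn2 passed in 5 of the 12 alternatives in which it was tested, and of 14 alternatives Pias3 passed in 4, Cebpd in 7, Cxcl10 in 8, Pias1 in 9, Stat6 in 10, Il13ra1 in 11, and Il10rb, Nmi and Oasl2 in 12. Without the block, Ifnlr1 (adjusted p 0.094), Il13ra1 (0.12), Oasl2 (0.16), Cd274 (0.089) and Hp (0.052) were also lost. Beyond fewer samples or the fit's own construction, the cause was not tested. Values for low targets rest on few reads.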
